A study of Homo sapiens with 6 samples.

Results

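Cholesterol synthesis and sterol sensing were described with 28 genes, taken by symbol from a fixed list, among the 58478 genes of the table. The list holds 18 enzymes of the route from acetyl-CoA to cholesterol and 10 genes that sense, move or release sterols. The data were 6 RNA-seq libraries whose labels name Huh7, an established human liver cancer line, and a wild-type genotype. Cells of 3 libraries were kept at 21% O2 (normoxia) and cells of the other 3 at 1% O2 (hypoxia), in both cases for 24 h, and the labels name no other agent. All were grown in DMEM with fetal bovine serum. They come from 1 cell line. The replicates are named biological in the labels, and separate cultures are not described, so p-values measure only the spread between these libraries.

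Cells make cholesterol from acetyl-CoA through mevalonate, isoprenoid diphosphates, squalene and lanosterol, and several of its enzymes (the squalene epoxidase SQLE, the demethylation enzymes CYP51A1 and MSMO1, and the desaturase SC5D) use molecular oxygen. The transcription factor SREBP2, encoded by SREBF2, drives genes of this route. SCAP carries the SREBP precursor from the endoplasmic reticulum to the Golgi when membrane sterols are low, INSIG1 and INSIG2 hold SCAP back when sterols are plentiful, and the proteases MBTPS1 and MBTPS2 release the active factor. Liver cells are a main site of this synthesis. Other enzymes and uptake genes of the route are not analysed here.

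The libraries held 37621426 to 40794783 expected counts each, of which 6.12% to 6.39% fell on rows with no gene in GENCODE release 29. Known hypoxia-responsive genes were higher in the libraries labelled hypoxia: CA9 by 3.02, VEGFA by 2.94, NDRG1 by 4.33 and ADM by 5.47 on the log2 scale. Most of the 12 hepatocyte markers were near absent. AFP, APOA1, TTR and GPC3 were at 0 in all 6 libraries and ALB reached at most 0.0765 CPM (counts scaled to the size of the library), so these libraries lacked defining markers of the labelled line. Of the 4 hepatocyte markers tested, 3 rose and 1 fell. HNF4A, a hepatocyte transcription factor, rose from 1.3 to 7.01 CPM on average (log2 change 2.43, edgeR adjusted p = 1.62e-07) and SERPINA1 from 0.0669 to 1.83 CPM. The abundant marker C3 rose by 0.55 on the log2 scale, from 332.8 to 488.4 CPM on average. CPS1, the highest of the list, fell by 0.27, from 2138 to 1773 CPM on average. Of the other marker lists, 5 fibroblast genes summed to 72.6 to 75.3 CPM (normoxia) and 58.5 to 67.8 CPM (hypoxia), of which COL1A1 was nearly all (71.4 and 56.9 CPM on average). Of the other fibroblast genes, PDGFRB rose 2.87-fold and COL3A1 2.7-fold, both from low levels. The sum of 4 endothelial genes was 11.3 to 12.3 CPM against 4.97 to 5.79 CPM, with KDR at 0. Within it CDH5 fell from 9.15 to 0.453 CPM and VWF from 0.504 to 0.196 CPM, and PECAM1 rose from 2.11 to 4.86 CPM. The sum of 5 blood cell genes was 6.2 to 6.57 CPM against 42.3 to 51.3 CPM, of which CD68 made up nearly all and PTPRC was at 0. Mitochondrial genes took 6.72% to 7.02% of the counts at 21% O2 and 2.37% to 2.48% at 1% O2. The part of these shifts in the results below was not tested. In bulk libraries, fewer cells of a type and less RNA per cell cannot be told apart.

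The start regions of 25 of the 28 genes were read from RefSeq promoter windows (GRCh38.p14, 250 bases before to 50 after a start). They are shown because the SREBP and hypoxia-responsive factors are known to bind short motifs there. The windows below belong to the INSIG1 and INSIG2 genes, which had the largest rises of the 28, to SREBF2, and to the enzyme genes IDI1 and MSMO1, which were more than 2-fold higher. Runs outside every GENCODE exon before a start are printed, with 30 bases around 1 match inside an exon for INSIG1 and for SREBF2. Matches elsewhere in exons are not shown, among them CCAAT at -34 in MSMO1 and at -106 in SREBF2 and ACGTG at 25 after another start of INSIG2. IDI1 has several starts, and runs before 2 of them are shown, of which 1 holds no CCAAT. Capitals mark the sterol regulatory element (in SREBF2, the 10 letters of the classical element, searched with any letter at the sixth place), CCAAT (the box bound by NF-Y) and ACGTG (the core of hypoxia response elements and of E-boxes), each on either strand, so that ATTGG is CCAAT and CACGT is ACGTG read from the other strand. A CACGTG counts as an ACGTG on both strands. GCGTG, the other hypoxia core counted below, is left unmarked. Printed runs of INSIG1, INSIG2, SREBF2, IDI1 and MSMO1 all hold it, on either strand.
INSIG1, chr7:155297628-155297775, + strand: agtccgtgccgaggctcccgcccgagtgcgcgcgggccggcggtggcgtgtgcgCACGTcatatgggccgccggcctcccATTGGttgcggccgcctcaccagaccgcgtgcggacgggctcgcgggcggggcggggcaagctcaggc
INSIG1, chr7:155297813-155297842, + strand: cgggcaggctCACGTGatgcgggccccgcg
INSIG2, chr2:118088221-118088451, + strand: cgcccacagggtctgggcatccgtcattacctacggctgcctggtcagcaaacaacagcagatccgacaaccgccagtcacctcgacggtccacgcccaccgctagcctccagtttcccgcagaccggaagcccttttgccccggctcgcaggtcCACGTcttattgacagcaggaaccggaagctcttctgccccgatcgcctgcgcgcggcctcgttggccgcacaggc
SREBF2, chr22:41832961-41832990, + strand: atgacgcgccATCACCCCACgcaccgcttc
IDI1, chr10:1049171-1049369, - strand: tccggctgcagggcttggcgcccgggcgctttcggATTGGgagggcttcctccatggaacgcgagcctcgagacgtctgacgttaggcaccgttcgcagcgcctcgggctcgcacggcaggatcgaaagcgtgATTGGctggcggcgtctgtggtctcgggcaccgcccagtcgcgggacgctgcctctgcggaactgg
IDI1, chr10:1056705-1056846, - strand: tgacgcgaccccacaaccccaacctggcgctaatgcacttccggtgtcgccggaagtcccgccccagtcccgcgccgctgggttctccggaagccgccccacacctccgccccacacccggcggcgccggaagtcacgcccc
MSMO1, chr4:165327419-165327622, + strand: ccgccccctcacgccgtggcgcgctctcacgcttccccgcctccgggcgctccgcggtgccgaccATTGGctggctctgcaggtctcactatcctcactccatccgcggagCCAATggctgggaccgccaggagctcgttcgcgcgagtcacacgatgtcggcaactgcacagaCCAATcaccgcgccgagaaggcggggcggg

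Across all the 27305 genes with a window, the sterol regulatory element was found for 0.19% and, of the 25 genes here, for SREBF2 alone, at position -134 from its start. Allowing 1 mismatch to the letters in SREBF2 gave 2.08% of all genes and the same single gene. The element without its leading A, which lies inside the longer form, was present for 1.39% of all genes and again for SREBF2 alone. CCAAT was found for 39.7% of all genes and for 17 of the 25. It was present in 13 of the 15 enzyme genes with a window and in 4 of the other 10. The GC box, GGGCGG, was found for 48.3% of all genes and 22 of the 25. ACGTG was present for 24.9% of all genes and for 8 of the 25, among them INSIG1, INSIG2, SCAP, STARD4 and ABCA1 and the enzyme genes DHCR7, SC5D and LSS. GCGTG, another core of hypoxia response elements, was found for 40.6% of all genes and for 19 of the 25. A match is a description of the letters only, and the letters were compared with no binding data.

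Cholesterol pathway transcripts were higher in hypoxia for nearly all the enzymes listed here. Of the 28 genes, 27 had enough counts to be tested, 22 of these rose, 4 fell (PMVK, SCAP, MBTPS2 and MYLIP) and MBTPS1 did not pass. Over all 17396 genes tested, 72.8% changed, 36.5% in the higher and 36.3% in the lower direction, so a change by itself was common. A rise of at least 2-fold was found for 11 of the 27 genes and for 17.5% of all genes tested. The median log2 change was 0.90 for the 27 genes and 0.02 for all genes tested. The groups did not overlap for 26 of the 27, against 75.7% of all genes. Summed over the 28 genes, the level was 2574 ± 43.2 CPM (SD, n = 3) in normoxia and 5076 ± 95.1 CPM in hypoxia. With library totals as the only scaling, the median of all genes moved to -0.13 and that of the 27 to 0.75, and 22 again rose and 4 fell.

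**Figure D1:**
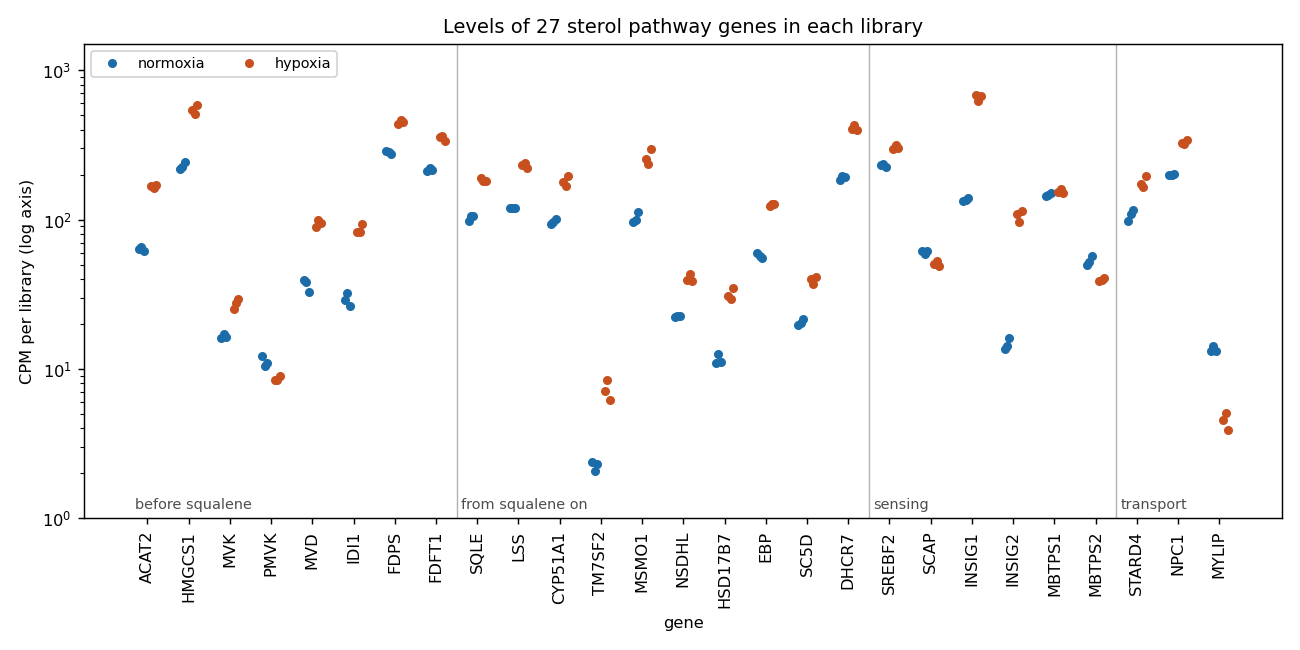
Level of the 27 tested sterol genes in each library, in CPM on a log axis, with blue points for the 3 normoxia and orange points for the 3 hypoxia libraries. Points of the 2 groups are apart for 26 genes and overlap for MBTPS1; hypoxia lies below normoxia for PMVK, SCAP, MBTPS2 and MYLIP.

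Of the 18 synthesis enzymes, 17 rose, 9 of them by at least 2-fold, and PMVK fell. Their median was 1.03 on the log2 scale. Their summed level went from 1611 ± 22.7 CPM to 3248 ± 57.4 CPM (SD, n = 3). The 8 enzymes up to squalene had a median of 1.00, with 7 that rose, and the 10 enzymes from squalene on had a median of 1.03, and all 10 rose.

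ACAT2 and HMGCS1 condense acetyl units into the precursor of mevalonate. ACAT2 stood at 63.8, 65.2 and 61.6 CPM in the normoxia libraries and at 167.6, 162.6 and 171.5 CPM in hypoxia, a log2 change of 1.40 (SE 0.04, adjusted p = 5.81e-10). HMGCS1 was at 217.5, 224.0 and 241.6 CPM against 544.2, 509.0 and 584.3 CPM (log2 change 1.26, SE 0.06, adjusted p = 1.12e-08). Every hypoxia library was more than 2-fold above every normoxia library for both genes. Exons of ACAT2 overlap TCP1 on the other strand, and TCP1 had a lower mean in hypoxia (90.5 CPM against 186.0 CPM). Whether the authors' counting used the strand is not given in the sources used here, so reads in the overlapping exons cannot be told apart.

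The mevalonate kinase MVK and the phosphomevalonate kinase PMVK act once mevalonate is made, and they moved in opposite directions. MVK had 16.1, 17.0 and 16.3 CPM in normoxia and 25.2, 27.6 and 29.6 CPM in hypoxia (log2 change 0.73, SE 0.07, adjusted p = 5.7e-06). PMVK, on chromosome 1 at 154924734 to 154936991 (GRCh38), had 12.2, 10.4 and 11.0 CPM in normoxia and 8.44, 8.44 and 8.98 CPM in hypoxia. It fell by 0.38 on the log2 scale (SE 0.09, adjusted p = 0.00368), and it was the only one of the 18 enzymes whose hypoxia libraries all lay below normoxia. With the most abundant transcript of each gene in place of the gene sum, the MVK difference was 0.18 and missed the threshold (adjusted p = 0.469). MVK shares exon sequence with MMAB on the opposite strand, whose mean went from 19.1 to 27.2 CPM.

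The decarboxylase MVD makes isopentenyl diphosphate, the isomerase IDI1 converts it, and FDPS joins these units into farnesyl diphosphate. MVD was at 39.2, 38.0 and 32.7 CPM in normoxia and at 88.6, 99.5 and 95.5 CPM in hypoxia (log2 change 1.37, SE 0.07, adjusted p = 3.18e-08). IDI1 had 29, 32.3 and 26.2 CPM against 82.3, 82.3 and 93.4 CPM (log2 change 1.56, SE 0.08, adjusted p = 2.34e-08). FDPS had 287.2, 283.0 and 274.6 CPM against 439.8, 463.9 and 450.0 CPM, a smaller log2 change of 0.68 (SE 0.04, adjusted p = 6.37e-08). The 3 genes had groups well apart. FPKM were computed from the counts and transcript lengths and summed over all transcripts. On this per-length scale, FDPS was the most abundant of the 28 genes in both groups. It stood at 264.2 ± 8.80 in normoxia and 367.3 ± 10.7 in hypoxia (SD, n = 3). Protein-coding transcripts held 60.0% of its counts in normoxia and 57.6% in hypoxia. The 680-base retained-intron form ENST00000490140 held 20.6% and 18.8%, and a short form weighs more per count on this scale. The rank of FDPS from coding transcripts alone was not examined. Processed pseudogene copies of FDPS, IDI1 and CYP51A1 were each under 1 CPM in both groups.

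FDFT1, squalene synthase, commits farnesyl diphosphate to sterols. It had 213.0, 221.8 and 214.3 CPM in normoxia and 355.1, 360.2 and 338.5 CPM in hypoxia (log2 change 0.70, SE 0.04, adjusted p = 6.81e-08). SQLE then adds oxygen to squalene, and LSS closes the ring to lanosterol. SQLE stood at 97.3, 105.4 and 106.4 CPM against 189.7, 180.7 and 181.0 CPM (log2 change 0.84, SE 0.05, adjusted p = 5.38e-08). LSS stood at 119.5, 119.6 and 119.4 CPM against 232.6, 239.8 and 222.8 CPM (log2 change 0.96, SE 0.04, adjusted p = 6.5e-09). The hypoxia libraries were above all normoxia libraries for these genes too.

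The lanosterol product is trimmed by CYP51A1 and MSMO1, which use oxygen to remove methyl groups, with NSDHL and HSD17B7 acting beside MSMO1 and TM7SF2 reducing the product of CYP51A1. CYP51A1 had 93.1, 96.1 and 101.5 CPM in normoxia and 178.5, 168.7 and 197.1 CPM in hypoxia (log2 change 0.90, SE 0.06, adjusted p = 2.03e-07). MSMO1 had 96.4, 99.2 and 113.0 CPM against 253.5, 236.9 and 296.8 CPM (log2 change 1.35, SE 0.08, adjusted p = 1.29e-07). HSD17B7 had 10.9, 12.5 and 11.1 CPM against 30.6, 29.4 and 34.6 CPM (log2 change 1.46, SE 0.09, adjusted p = 7.23e-08). All 3 had separate groups, and NSDHL rose as well, by 0.85 on the log2 scale, from 22.5 to 40.5 CPM on average. HSD17B7P2, a pseudogene copy of HSD17B7, went from a mean of 0.663 to 2.03 CPM, so some reads of the pair may be shared.

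TM7SF2, on chromosome 11 at 65111845 to 65116384, was the least abundant of the enzymes. It had 2.39, 2.07 and 2.29 CPM in normoxia and 7.15, 8.47 and 6.17 CPM in hypoxia, the largest log2 change among the enzymes at 1.69 (SE 0.15, adjusted p = 2.22e-06). VPS51, which shares exon sequence with it on the same strand, stood at 50.1 and 51.3 CPM on average, so the split of reads between them is uncertain. The TM7SF2 change was 2.55 from protein-coding transcripts alone and 1.00 on the log2(FPKM + 1) scale.

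EBP, SC5D and DHCR7 act late in the route, where they move, add and remove a double bond in turn. EBP had 59.8, 56.6 and 55.4 CPM in normoxia and 123.3, 127.3 and 126.8 CPM in hypoxia (log2 change 1.13, SE 0.04, adjusted p = 3.3e-09). DHCR7 had 185.2, 195.9 and 194.0 CPM against 406.5, 432.7 and 397.4 CPM (log2 change 1.10, SE 0.05, adjusted p = 4.35e-09). SC5D, which uses oxygen, had 19.8, 20.4 and 21.5 CPM against 40.1, 37.3 and 41.0 CPM (log2 change 0.94, SE 0.06, adjusted p = 1.77e-07). These late enzymes had separate groups. Set by their chemistry, the 4 oxygen-using enzymes (SQLE, CYP51A1, MSMO1 and SC5D) changed by 0.84 to 1.35, with a median of 0.92. The other 6 enzymes from squalene on changed by 0.85 to 1.69, with a median of 1.12. The ranges overlap, and the difference between these sets was not tested.

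**Figure D2:**
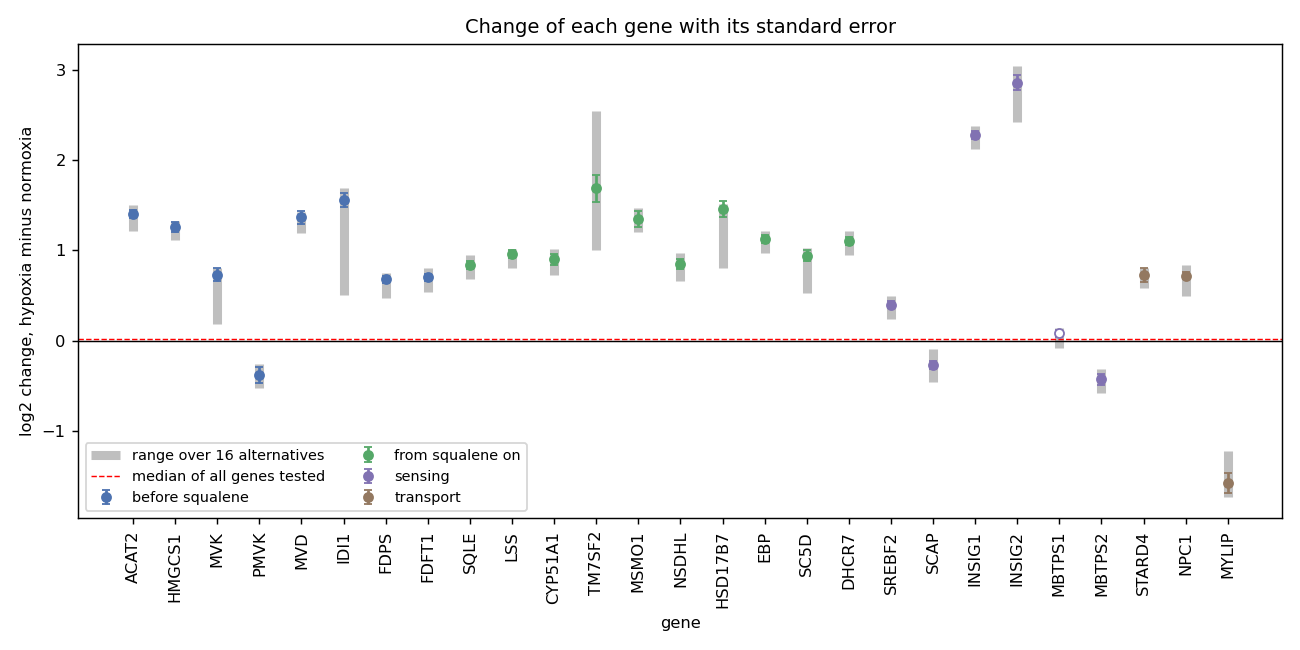
Log2 change (hypoxia minus normoxia) of each tested sterol gene in edgeR's test, with the SE as error bars, coloured by role; grey bars give the range over the 16 alternative settings, the dashed line the median of all genes tested (0.02), and the open circle the gene that did not pass. INSIG2 and INSIG1 stand highest at 2.86 and 2.28, and MYLIP lowest at -1.58.

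Among the sensing genes, INSIG1 and INSIG2 stood apart in size. INSIG1, on chromosome 7 at 155297776 to 155310235, had 132.7, 136.0 and 138.8 CPM in normoxia and 683.4, 626.9 and 671.3 CPM in hypoxia. The rise was 4.86-fold (log2 change 2.28, SE 0.05, adjusted p = 3.06e-11). INSIG2, on chromosome 2 at 118088452 to 118110997, had 13.5, 14.3 and 16.1 CPM against 109.4, 95.9 and 114.7 CPM, a 7.28-fold rise (log2 change 2.86, SE 0.08, adjusted p = 3.83e-10). Every hypoxia library was far above every normoxia library for both genes. Of the 17396 genes tested, 663 had a larger rise than INSIG2 and 982 a larger rise than INSIG1. On the FPKM scale, INSIG1 was 56.4 ± 0.680 in normoxia and 249.5 ± 9.75 in hypoxia, and INSIG2 was 6.40 ± 0.248 and 38.8 ± 4.23 (SD, n = 3), so INSIG1 remained the more abundant.

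SREBF2 and SCAP moved in opposite directions by small amounts. SREBF2, which encodes the transcription factor itself, had 231.7, 237.1 and 226.0 CPM in normoxia and 295.7, 316.4 and 302.1 CPM in hypoxia. It rose by 0.40 on the log2 scale (SE 0.04, adjusted p = 7.77e-06), or by 0.24 with library totals as the scaling. SCAP, the escort protein, had 61.2, 59.1 and 62.0 CPM against 50.3, 52.4 and 48.5 CPM. It fell by 0.27 on the log2 scale (SE 0.05, adjusted p = 0.000434), with no overlap between the groups. With the most abundant transcript alone the SCAP value was -0.09 and did not pass (adjusted p = 0.229). That transcript, ENST00000265565, held 73.7% of SCAP counts in normoxia and 82.4% in hypoxia, while ENST00000648151 held 11.0% in normoxia and was listed at 0 in the 3 hypoxia libraries.

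Of the proteases that release SREBP, MBTPS1 had 142.8, 145.1 and 151.8 CPM in normoxia and 152.6, 159.4 and 151.4 CPM in hypoxia. Its groups overlapped, and its log2 difference of 0.08 (SE 0.04) did not pass (adjusted p = 0.13). The direction of MBTPS1 depended on the scaling, with -0.08 under library totals and 0.14 under upper-quartile factors, and the latter passed (adjusted p = 0.0114). MBTPS2 had 49.8, 51.7 and 57.3 CPM against 38.6, 39.2 and 40.4 CPM and fell by 0.43 on the log2 scale (SE 0.06, adjusted p = 7.97e-05). All hypoxia libraries were below normoxia for MBTPS2, which overlaps exons of YY2 on the same strand. The mean level of YY2 was 3.37 CPM (normoxia) and 2.79 CPM (hypoxia), and reads of the shared exons cannot be told apart.

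Set per length, the INSIG transcripts outnumbered SCAP more strongly in hypoxia. The FPKM of INSIG1 plus INSIG2 over that of SCAP was 3.42, 3.69 and 3.47 in the normoxia libraries and 23.2, 20.9 and 22.9 in the hypoxia libraries. The means were 3.53 ± 0.141 and 22.4 ± 1.25 (SD, n = 3), with no overlap; 3 libraries against 3 cannot give an exact permutation p under 0.1. From protein-coding transcripts alone, the same ratio was 4.49 and 28.1. SREBF2 over SCAP was 3.06 ± 0.178 and 5.36 ± 0.276. INSIG1 over INSIG2 was 8.81 ± 0.249 in normoxia and 6.47 ± 0.581 in hypoxia, and 16.8 and 10.4 from protein-coding transcripts alone. That ratio was lower in hypoxia in both forms, but its size rested on which transcripts were summed.

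**Figure D3:**
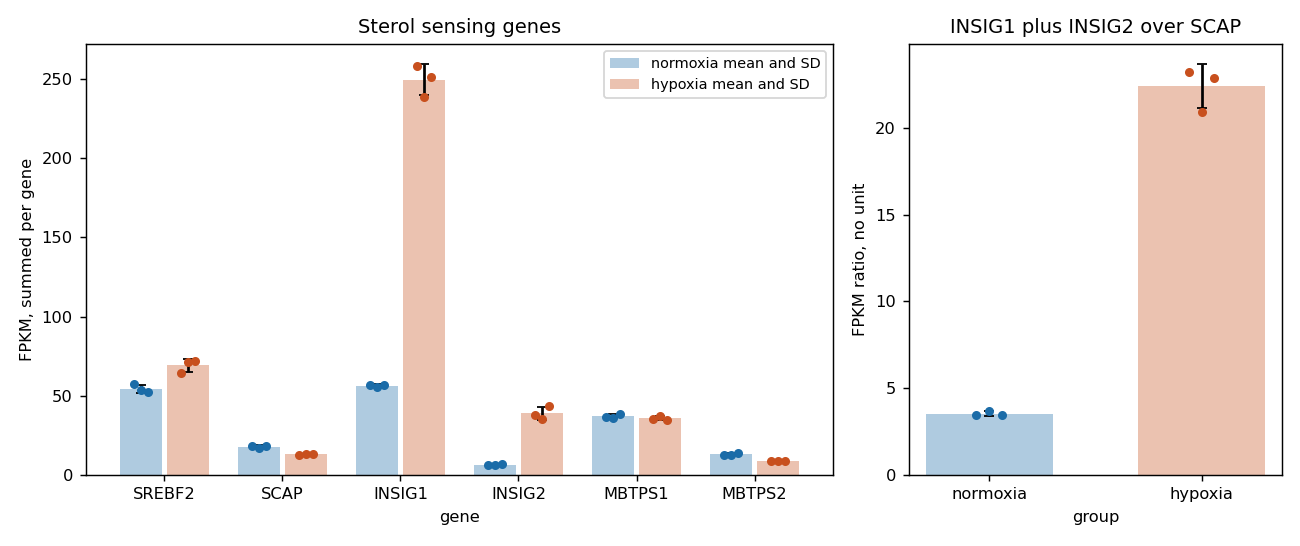
FPKM summed per gene for the 6 sensing genes (left) and the ratio of INSIG1 plus INSIG2 to SCAP (right); bars are means of 3 libraries, error bars the SD, points the libraries. INSIG1 stands at 249.5 FPKM in hypoxia, MBTPS1 at 37.0 and 35.7 FPKM in the 2 groups, and the ratio goes from 3.53 to 22.4.

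The transport genes were mixed. STARD4, a carrier that moves cholesterol between membranes, had 97.5, 108.2 and 115.6 CPM in normoxia and 173.9, 164.4 and 195.9 CPM in hypoxia (log2 change 0.73, SE 0.07, adjusted p = 6.45e-06). NPC1, which exports cholesterol from lysosomes, had 198.0, 199.6 and 201.4 CPM against 323.7, 321.9 and 339.6 CPM (log2 change 0.72, SE 0.04, adjusted p = 3.74e-08). Groups were apart for both, and NPC1 shares exon sequence with RMC1 on the opposite strand, whose mean went from 22.7 to 15.9 CPM. MYLIP, an E3 ubiquitin ligase also called IDOL and a known target of the sterol-activated LXR receptors, lies on chromosome 6 at 16129125 to 16148248. It had 13.1, 14.2 and 13.2 CPM in normoxia and 4.57, 5.04 and 3.92 CPM in hypoxia, 2.99-fold lower (log2 change -1.58, SE 0.11, adjusted p = 2.59e-07). The hypoxia libraries all lay below the normoxia libraries, and 717 of all genes tested had a larger fall. ABCA1, the efflux pump for cholesterol and another LXR target, had 21 counts over all 6 libraries and at most 0.173 CPM, so it was not tested. A count of 3 corresponds to 0.075 to 0.0898 CPM in these libraries, and no difference in ABCA1 was detectable at this depth.

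The order by FPKM takes in all transcripts, coding or not. FDPS (264.2), FDFT1 (116.2 ± 2.09), DHCR7 (81.5 ± 1.56) and HMGCS1 (79.9 ± 3.65) led in normoxia, and DHCR7 and HMGCS1 did not differ beyond their spread. In hypoxia the leading genes were FDPS (367.3), INSIG1 (249.5), HMGCS1 (197.2 ± 12.6), FDFT1 (169.8 ± 7.05) and DHCR7 (159.1 ± 5.96), and the ranges of FDFT1 and DHCR7 overlapped. At the low end were ABCA1, TM7SF2 (1.72 in normoxia, 4.49 in hypoxia) and MYLIP (4.35 in normoxia, 1.30 in hypoxia).

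Within several genes the mix of transcripts also differed between the groups. Shares are given as the percent of a gene's expected counts, which RSEM divides among transcripts by estimation. For FDFT1, the coding transcript ENST00000525900 held 19.9%, 17.1% and 18.1% in normoxia and 3.35%, 1.24% and 2.34% in hypoxia. Its coding transcript ENST00000530664 went the other way, from 3.43%, 3.81% and 2.58% to 11.0%, 12.0% and 13.2%, while the main transcript ENST00000220584 held 66.6% and 68.5% on average. For IDI1, ENST00000381344 held 67.5%, 59.6% and 57.0% in normoxia and 29.6%, 27.1% and 30.5% in hypoxia. ENST00000429642 of IDI1 held 18.8% and 32.8% on average and exceeded ENST00000381344 in each hypoxia library. With ENST00000381344 alone the IDI1 change was 0.51 in place of 1.56. For SC5D, ENST00000392789 had a mean share of 56.3% in normoxia and 41.6% in hypoxia, and ENST00000264027 had 34.6% and 47.5%. These shares were not tested.

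Transcripts with no coding label took a larger share of some enzyme genes in hypoxia. A share on protein-coding transcripts could be given for 23 of the 28 genes. It was lower in all hypoxia than in all normoxia libraries for 11 of the 23, against 23.9% of all 10338 genes with such a share, and higher in all for TM7SF2 and INSIG2, against 7.89% of all genes. The median difference was -1.53 percentage points for the 23 genes and -0.692 points for all. HSD17B7 had the largest drop: its coding share was 72.5%, 74.2% and 70.2% in normoxia and 52.2%, 45.2% and 51.9% in hypoxia. Its retained-intron form ENST00000649629 held 10.3% in normoxia and 25.4% in hypoxia on average. From the most abundant HSD17B7 transcript alone, the rise was 0.81 in place of 1.46. The coding share of IDI1 was 80.7% and 62.7%, that of MVK 79.7% and 66.0%, that of MVD 78.0% and 67.7% and that of HMGCS1 93.4% and 88.1% on average. In MVK, the retained-intron form ENST00000540353 held 17.8% in normoxia and 30.2% in hypoxia. Summed over coding transcripts alone, 17 of the 18 enzymes again rose, with a median of 1.03.

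**Figure D4:**
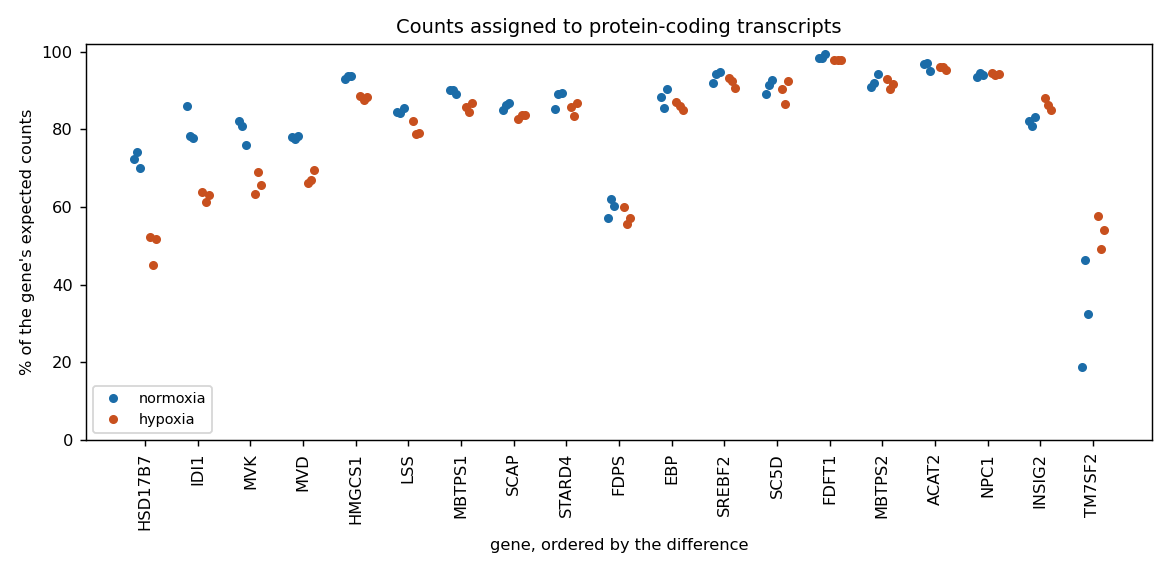
Percent of each gene's expected counts on protein-coding transcripts, 1 point a library, for the 19 sterol genes whose normoxia mean was under 99%, ordered by the difference. HSD17B7, IDI1, MVK and MVD show the largest drops in hypoxia, and TM7SF2, whose normoxia libraries spread from 18.8% to 46.3%, and INSIG2 lie higher.

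Genes next to the sterol route were counted in the same fit. Of 48 genes in 4 neighbouring lists, 41 were tested, with a median of -0.20 on the log2 scale. Of these, 10 rose, 24 fell and 7 missed the threshold. Among all genes tested, 36.5% rose and 36.3% fell (median 0.02), and of the 13140 protein-coding genes tested 4560 rose and 5644 fell (median -0.08). Those lists were chosen by known role, but with earlier results of these data known, as were the sterol genes. The difference between the lists and the sterol genes is therefore descriptive, and the effect of that choice was not tested.

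In the isoprenoid branch, which spends the same intermediates on ubiquinone, dolichol and prenylated proteins or feeds the route, 3 of 12 tested genes rose and 8 fell (median -0.65). PDSS1, a subunit of the enzyme that builds the ubiquinone tail, fell by 1.79, and its partner subunit PDSS2 rose by 0.39. The mitochondrial thiolase ACAT1 fell by 1.46, whereas its cytosolic counterpart ACAT2 rose by 1.40. The shared subunit of the protein prenyltransferases, FNTA, rose by 0.72. FNTB, the farnesyltransferase partner of FNTA, had a log2 change of 0.52 from gene sums, but -0.76 from coding transcripts alone, so its direction depended on the transcripts summed. PDSS2 likewise turned to -0.22 with the most abundant transcript, which did not pass.

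Of 7 tested genes for esters, oxysterols and efflux, 3 rose and 1 fell (median 0.26). The transporter ABCG1 had 38.2, 41.3 and 41.3 CPM in normoxia and 131.5, 131.3 and 135.8 CPM in hypoxia and rose by 1.72 (SE 0.05, adjusted p = 2.38e-10). The LXR-beta gene NR1H2 rose by 1.32, and the LXR-alpha gene NR1H3 had a difference of -0.03 that did not pass (adjusted p = 0.773). SOAT1, which esterifies cholesterol, had 75.6, 78.2 and 80.7 CPM against 38.3, 37.9 and 39.8 CPM and fell by 1.01 (SE 0.05, adjusted p = 1.18e-08). CYP46A1, an oxysterol-forming enzyme, rose by 2.15 from a low level of 0.194 to 0.871 CPM on average. ABCG1, also a known LXR target, was higher in hypoxia, whereas MYLIP was lower and ABCA1 was near absent in both groups. LXR targets among the other genes named here were not tallied.

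Of 11 tested uptake and transfer genes, 3 rose and 6 fell (median -0.36). NPC2, the lysosomal partner of NPC1, rose by 0.88 and the lipoprotein receptor SCARB1 by 0.76. STARD3, a lysosomal sterol carrier, had a log2 change of 0.28 that passed (adjusted p = 0.00306), but the call was lost in 6 of 16 alternatives. These were library totals (0.12, adjusted p = 0.112), the 3 limma fits (0.06 each, adjusted p up to 0.375), the most abundant transcript (0.54, adjusted p = 0.0829) and coding transcripts only (0.31, adjusted p = 0.143). GRAMD1B, which carries plasma membrane cholesterol to the endoplasmic reticulum, fell by 0.71 from a high level of 509.4 to 312.3 CPM, and TMEM97 fell by 0.47. Of 11 genes for the degradation of sterol enzymes, 1 rose (TMUB1, by 0.42) and 9 fell (median -0.20), with RNF145 down by 0.78, AUP1 by 0.52 and VCP by 0.43 on the log2 scale. RNF145 and AUP1 take part in the ubiquitination that sterols trigger at the endoplasmic reticulum.

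**Figure D5:**
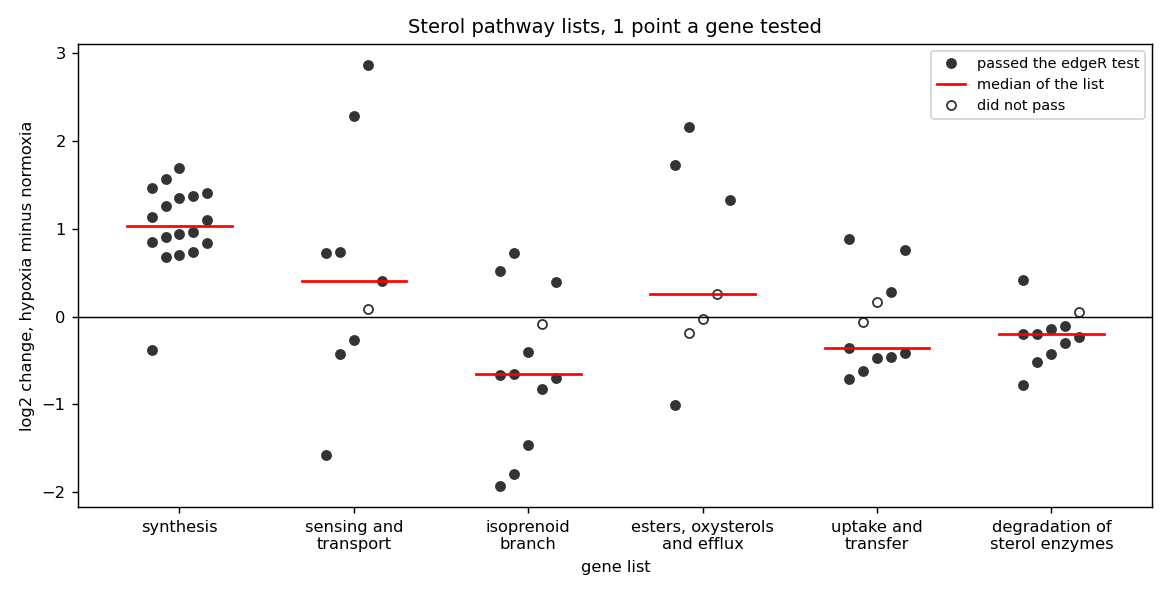
Log2 change (hypoxia minus normoxia) of each tested gene in the 2 member groups and the 4 neighbouring lists; filled points passed edgeR's test, open points did not, and red lines are list medians. The synthesis enzymes lie above 0 except PMVK, with a median of 1.03, while the medians of the isoprenoid, uptake and degradation lists are -0.65, -0.36 and -0.20.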

How the data were processed

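RNA was measured in 6 libraries, 3 a group. Ribosomal RNA was removed and strand-specific paired reads were made, per the labels' protocols. The tools were cutadapt, HISAT2 and RSEM on GRCh38 (hg38), per the submitters' processing notes. Not given in the sources used here are versions, annotation and use of the strand. The deposited table has 251062 transcript rows with a length and, for each library, an expected count, which is a read count that RSEM divided among transcripts. Its 6 other columns of per-library values were not used. Conditions were read from the column names, whose numbers C1 to C6 match no replicate number of the labels.

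Expected counts were summed per gene of GENCODE release 29 and rounded to whole numbers. The 48155 rows with no gene there stayed out of library sizes and tests. Hypoxia was compared with normoxia in edgeR 4.0.16 (R 4.3.3) by the quasi-likelihood test, two-sided, with TMM scaling, filterByExpr defaults and Benjamini-Hochberg adjustment over the 17396 genes tested, at a threshold of 0.05. CPM use the TMM-scaled library sizes, and an SE is the size of the log2 change divided by the root of F. FPKM were computed from the expected counts, the deposited lengths (not effective lengths) and each library's total, summed per gene, and used to set levels beside each other. Replicate pairs differed by 4.47 to 10.9 times the sampling noise (chi-square per degree of freedom), so no library was counted as a copy. On data simulated from these libraries (17033 genes), the test found 82.1% of 67 genes changed by 0.5 on the log2 scale, 100% of 67 changed by 1 and 100% of 66 changed by 2, and 18 of 16833 unchanged genes. Changes were planted only in genes above a minimum mean CPM that TM7SF2 does not reach. Far fewer genes were changed than the 72.8% of the real fit, so these rates need not hold there.

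Alternatives were DESeq2 1.42.0, library totals, upper-quartile factors, no filter, an FPKM minimum of 0.5, limma 3.58.1 on log2(FPKM + 0.5, 0.1 or 1), the most abundant transcript, coding transcripts only, and each library left out. All 28 genes are named. Of each neighbouring list, at most 3 genes a direction are named, those with the largest change whose groups did not overlap. A gene that this rule picks is not reported here, and NR1H3 was added after its value was seen. The 28 genes and the lists were chosen with earlier results of these data known. Promoter windows came from RefSeq (GRCh38.p14), and 25 of the 28 genes matched. Start and end positions of genes are those of GENCODE release 29 on GRCh38.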

Additional observations from a re-analysis of the deposited data

How the results depend on the processing

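The count of changed genes among the 28 was 26, and it ran from 24 (most abundant transcript) to 27 (upper-quartile factors, and coding transcripts only) over 16 alternatives. Of 432 pairs of a gene and an alternative, 424 kept the direction and the side of the threshold. MVK (0.18, adjusted p = 0.469) and SCAP (-0.09, adjusted p = 0.229) no longer passed with the most abundant transcript. MBTPS1 passed with upper-quartile factors (0.14) and with coding transcripts only (0.13), and it turned to -0.08 with library totals and to -0.05 with limma on log2(FPKM + 0.5), log2(FPKM + 0.1) and log2(FPKM + 1). With the most abundant transcript, PDSS2 turned to -0.22 and FNTB to -0.86, and with coding transcripts only FNTB turned to -0.76. The cause was not tested. The 6 fits that left out a library each gave 26 changed genes of the 28, and all 18 enzymes changed in each. Summing coding transcripts only, and the search with 1 mismatch, were chosen after seeing the data. No paired analysis was possible because the columns carry no replicate number of the labels. Depth kept ABCA1 alone of the 28 out of the test. TM7SF2 was also low, with 83 to 95 counts in each normoxia library, and its log2 change ran from 1.00 to 2.55 over the alternatives.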
